A study of Homo sapiens with 4 samples.

Results

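The far intergenic sites of BRCA2 ChIP-seq are the enriched regions that lie outside every gene listed beside them and more than 10 kb from it. They were chosen by position alone. A site was taken when each of its rows in the authors' deposited table placed it upstream or downstream of the listed gene at a shortest distance over 10 kb. This rule took 2211 of the 15131 sites, or 14.6%, and 49.0% of the 4513 sites outside genes. The listed genes include noncoding genes and pseudogenes. Only 12 of the 2211 sites had 2 genes listed, and the distance to genes not listed beside a site was not checked.

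The study used hTert-HME1, an established line of human breast epithelial cells that telomerase has immortalized, harvested here in log phase from mammary epithelial medium. The groups were BRCA2 ChIP (2 libraries, antibody to BRCA2) and input chromatin (2 libraries, no antibody), both from formaldehyde-crosslinked cells with no treatment named in the labels. The question was where BRCA2 lies on chromatin, read as ChIP over input. The labels do not say whether the 2 libraries of a group came from separate cultures.

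BRCA2 acts in homologous recombination, the repair of broken DNA from an intact copy, and protects stalled replication forks. Intergenic DNA holds enhancers, which are distal elements that act on gene starts over long distances, as well as noncoding transcripts, repeats and silent chromatin. In mammary epithelium, enhancers bound by AP-1, TEAD and p63 factors mark many basal cell genes. A ChIP fold by itself does not tell these kinds of intergenic DNA apart, and no chromatin mark was measured in these libraries.

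All levels, folds and FDR values come from the authors' deposited table and are group means with no value per library, so no spread between replicates and no depth per library can be given. A level is a mean log2 concentration of normalized reads, a log2 fold is the ChIP level minus the input level, and positions are on hg19. Sites enter the table at an FDR of at most 0.05. No control antibody was analysed here, so pull-down that is not specific to BRCA2 cannot be told apart from BRCA2 binding. No test was run between classes of sites, and the medians and counts below describe these sites.

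All 2211 far intergenic sites were above input, as were 15129 of all 15131 sites (100% when rounded). Their log2 folds ran from 0.60 to 4.10, with a median of 1.05 (a 2.07-fold enrichment) and quartiles of 0.87 and 1.34. Over all sites the median was 1.15, over gene starts 1.24, over gene ends 1.28, inside genes 1.14, and outside genes within 10 kb 1.16. The median input level was close in all of these, 5.43 at far intergenic sites and 5.42 over all sites by the deposited concentrations, or about 43.1 and 42.8 normalized reads. The median ChIP level was 6.52 at far intergenic sites (91.8 normalized reads), 6.60 over all sites and 6.67 over gene starts (102 normalized reads).

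The classes stood further apart among strong sites. Folds of 2 or more on the log2 scale were held by 145 far intergenic sites (6.56%), against 10.9% of all sites, 10.1% of those inside genes and 13.5% of those over gene starts. The share was 13.2% outside genes within 10 kb (8.26% for the 690 of these from 5 to 10 kb) and 20.4% over gene ends (142 sites). At 3 or more there were 23 (1.04%, against 3.90% of all sites), and at 4 or more there were 2 (0.0905%, against 2.03% of all sites and 5.12% over gene starts). Outside genes within 10 kb, the shares at 3 and at 4 or more were 3.95% and 1.13%. In all, 280 sites elsewhere had a larger fold than any far intergenic site. At the weak end, 1257 (56.9%) had a log2 fold of 1 or more, against 66.9% of all sites. An FDR under 0.01 was held by 1427 (64.5%, against 74.0%), and one under 0.001 by 729 (33.0%, against 44.6%).

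**Figure D1:**
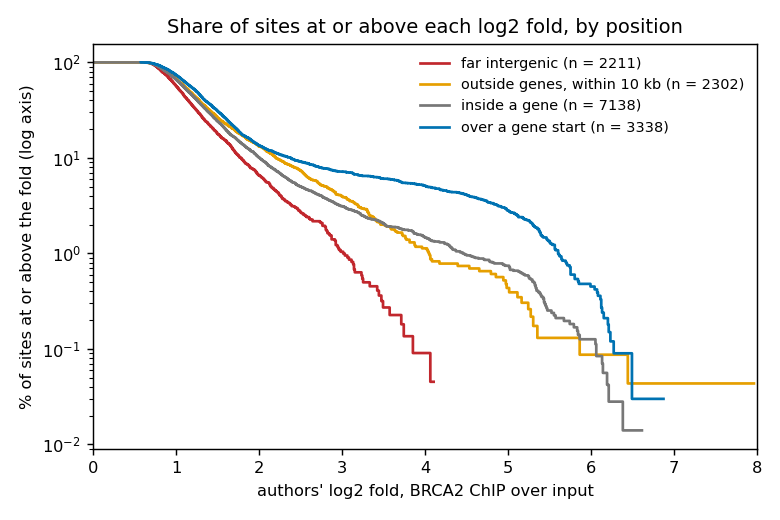
The share of sites (percent, log axis) at or above each log2 fold of BRCA2 ChIP over input (x axis). Lines are drawn for far intergenic sites, other sites outside genes, sites inside genes and sites over gene starts, and none for gene ends. The line of the 2211 far intergenic sites lies below the others from a log2 fold of about 1 and ends at 4.10, while gene starts keep 5.12% of their sites at a log2 fold of 4 or more.

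The lower folds were also seen at like input. Among sites with an input level under 5, the median log2 fold was 1.43 at 404 far intergenic sites, 1.54 inside genes and 1.69 over gene starts. From 5 to 5.5 these medians were 1.04, 1.16 and 1.26, and from 5.5 to 6 they were 0.96, 1.01 and 1.05. At an input level of 6 or more they lay closest, at 0.90, 0.94 and 0.96. The smallest fold in the table also depended on input: the weakest far intergenic site had a log2 fold of 0.80 under an input level of 5 and 0.60 at 6 or more. Across the 2211 sites the Spearman correlation of fold with input was -0.41, and over all sites it was -0.44. Fold is computed from input, so these quantities share a term, and the values are a description.

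**Figure D2:**
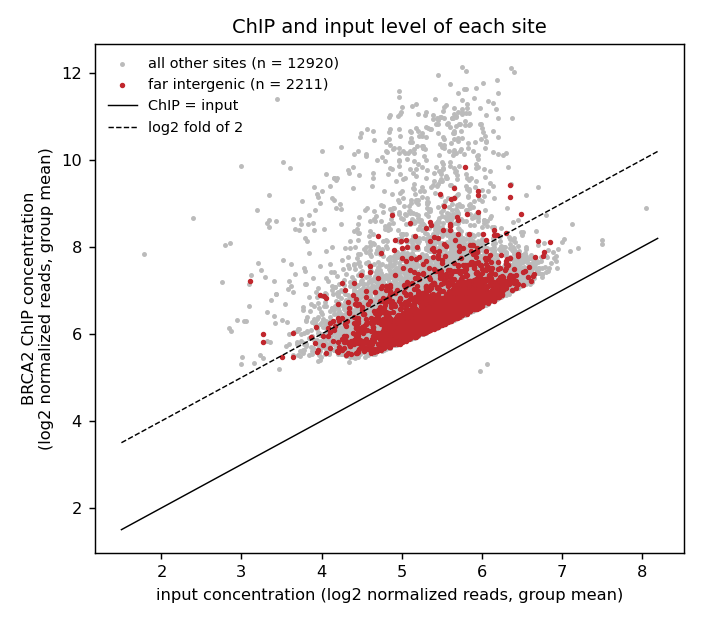
ChIP level against input level (both mean log2 normalized reads of a group) for the 2211 far intergenic sites and the 12920 other sites, with lines for equal levels and for a log2 fold of 2. All classes share the lower edge of the cloud. Far intergenic sites reach a ChIP level of 9.85, and other sites reach 12.14.

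The strongest far intergenic sites lay on 9 chromosomes and mostly beside genes known by a clone name only, the kind beside 37.4% of all far intergenic sites. Coding genes are given below as the nearest start among the 8950 protein-coding genes that the table lists, so a gene with no site of its own is not counted. The site with the most ChIP signal and the smallest FDR, at chr8:123613865-123614364, had a ChIP level of 9.85 and an input level of 5.79. Its log2 fold was 4.06, a 16.7-fold enrichment, with an FDR of 2.59e-47. The table lists it 69.2 kb from a snoU13 gene, and the nearest listed coding start was that of ZHX2, a zinc finger and homeobox repressor, at 179 kb. A further 5 far intergenic sites had ZHX2 as their nearest listed coding start, and their log2 folds were between 0.76 and 1.10.

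The largest fold rested on little input. The site at chr4:33264340-33264839 had a log2 fold of 4.10, with a ChIP level of 7.21 and an input level of 3.11, the lowest of all far intergenic sites. Its FDR was 0.00158, weaker than that of each of the other 11 sites in the top 12 by fold. It lay 24.0 kb from RP11-638O6.1, 2542 kb from the start of PCDH7, a protocadherin gene, and 1648 kb from the next site of the table.

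Next came a site at chr8:60760977-60761476, with a ChIP level of 8.73, an input level of 4.88, a log2 fold of 3.85 (FDR 1.33e-31), 729 kb from the start of TOX, a nuclear HMG-box gene. On the X chromosome, chrX:68219102-68219601 had a log2 fold of 3.74 (ChIP 9.22, input 5.48, FDR 5.87e-29) and lay 161 kb downstream of PJA1, a ubiquitin ligase gene. Apart from the chromosome 4 site, the top 12 had input levels between 4.70 and 5.96, on both sides of the median of 5.43. The site at chr11:69808264-69808763 had a log2 fold of 3.71 (ChIP 9.37, input 5.66, FDR 5.24e-34), 116 kb from the start of ANO1, a calcium-activated chloride channel. FAM156B had 3.57, with its site 12.1 kb past the gene. FAM156B has a near-identical copy, so how reads were divided there is uncertain.

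The other sites of the top 12 were near varied genes. The site at chr6:112273911-112274410 had a log2 fold of 3.49, 79.3 kb from the start of FYN, a kinase of the SRC family. CAP1, which turns over actin filaments, had a site 24.4 kb upstream with 3.47. AC080002.1 had 3.44 with COL4A4, a basement membrane collagen, at 1133 kb, and AC098592.7 had 3.42 with BZW2 at 270 kb. PPIAP16, a pseudogene, had 3.33 at a site 13.7 kb past it. AC090939.1 had 3.25 at a site 49.8 kb from the start of VGLL4, a cofactor that binds TEAD factors. The 8 far intergenic sites with the smallest FDR were all among these 12. Of the 12, 8 had no other site within 20 kb, and 3 were listed beside a protein-coding gene. Among all far intergenic sites these shares were 63.2% and 30.2%, and 43.2% of all sites had another site within 20 kb.

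The 145 sites with a log2 fold of 2 or more were set beside the other 2066 by position. Their levels, a median of 7.64 against 6.49 for ChIP and 5.11 against 5.44 for input, follow from the split by fold. They lay on all 23 chromosomes that hold sites. Their median distance to the listed gene was 24.6 kb, and that of the others was also 24.6 kb. Another site of the table within 20 kb was present for 40.0% of them and for 36.6% of the others. They lay upstream of the listed gene in 58.6% of cases, against 63.0%, and beside a protein-coding gene in 25.5%, against 30.5%.

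Median folds were similar over most of the range of distance. The distance to the listed gene had a median of 24.6 kb, quartiles of 15.5 and 45.2 kb, and a maximum of 440 kb. The median log2 fold was 1.04 at the 857 sites from 10 to 20 kb, 1.05 at 870 from 20 to 50 kb, 1.06 at 347 from 50 to 100 kb, and 1.00 at 115 from 100 to 200 kb. The 22 sites beyond 200 kb had a median of 1.42, with a lower median input level of 5.04, and 20 of them (90.9%) had a log2 fold of 1 or more and 3 (13.6%) one of 2 or more, against 56.9% and 6.56% of all far intergenic sites and 66.9% and 10.9% of all sites. Across all 2211 sites the Spearman correlation of fold with distance was 0.02. Just inside the rule, the 690 sites outside genes from 5 to 10 kb had a median log2 fold of 1.09. At the threshold itself, the 116 sites from 9 to 10 kb had a median log2 fold of 1.11 and the 116 from 10 to 11 kb had 1.08, with 11 sites at a log2 fold of 2 or more in each.

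**Figure D3:**
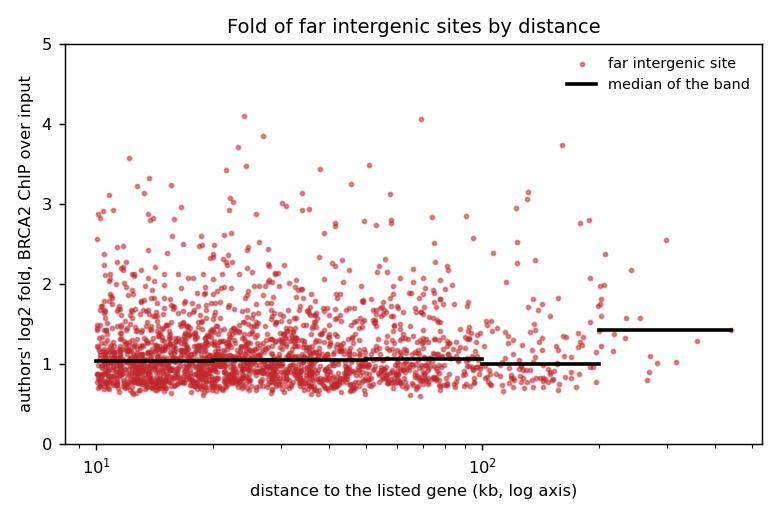
The log2 fold of each far intergenic site against its distance to the listed gene (kb, log axis), with the median of each distance band as a black bar. The medians stay between 1.00 and 1.06 up to 200 kb, and the 22 sites beyond have 1.42.

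The 5 sites farthest from any listed gene had log2 folds from 1.01 to 2.55. The farthest, at chr2:122994032-122994531, lay 440 kb from AC018737.3 at a log2 fold of 1.43 (FDR 0.000207). The nearest listed coding start, 499 kb away, was that of TSN, the gene of the DNA- and RNA-binding protein translin. TSN was also the nearest for a site at chr2:123506076-123506575, 316 kb from AC062020.2, with 1.03. RP11-354I10.1 on chromosome 6 had 1.29 at 359 kb, with TFAP2A, a factor of epithelial development, at 899 kb. RP11-442O18.2 on chromosome 10 had 1.01 at 283 kb, with MKI67, the proliferation marker, at 503 kb. RNA5SP157 on chromosome 4 had 2.55 at 299 kb, on an input level of 3.27.

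Median folds were also similar whatever kind of gene was listed beside a site. Genes known by a clone name only stood beside 827 far intergenic sites (37.4%), protein-coding genes beside 668 (30.2%), pseudogenes beside 380 (17.2%), lncRNA genes beside 200 (9.05%), small RNA genes beside 76 (3.44%) and microRNA genes beside 39 (1.76%). The median log2 folds of these 6 kinds were 1.05, 1.05, 1.04, 1.07, 1.04 and 1.04. Another 21 sites were beside genes of other or unmatched kind, with 1.15. Upstream sites (1386) and downstream sites (825) both had a median of 1.05. In all, 1819 genes were listed beside a far intergenic site, and 318 of them beside 2 or more. RP4-672N11.1 had the most, 6, with log2 folds from 0.87 to 1.46. Among the genes with 5 were RP11-446H13.2, with a largest fold of 2.80 near SORCS1, RNU6-793P with 2.43 near JARID2, RP11-443B7.3 with 1.57, and AC011286.1 with 1.34 near ACKR3 and COPS8. Small RNA names stand for many loci: 24 pairings with Y_RNA came from 21 genes, and 20 with snoU13 from 17 genes.

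Far intergenic sites were mostly single. Another site of any class lay within 20 kb of 814 (36.8%), against 43.2% of all sites, and the median gap to the next site was 34.5 kb, against 26.1 kb. Sites over gene starts had values close to those of far intergenic sites, 38.0% and 31.4 kb. When members within 20 kb of each other, with no other site between, were joined, 563 (25.5%) fell into 257 clusters. The other 1648 are called single sites here, though a site of another class could lie within 20 kb of them. Of all 2211, 1397 had no site of any class within 20 kb. There were 217 pairs, 33 triples and 7 clusters of 4 or 5. The median log2 fold was 1.08 in clusters and 1.04 for single sites, and the median input level was 5.56 in clusters and 5.39 for single sites. A log2 fold of 2 or more was held by 44 clustered sites (7.82%) and 101 single sites (6.13%), against the 10.9% of all sites.

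The 7 clusters of 4 or 5 sites had median log2 folds from 0.83 to 1.90. A cluster of 5 sites spanned 30.9 kb on chromosome 10 upstream of SMNDC1, a splicing factor gene, from 18.5 to 48.9 kb before its start. Its log2 folds were 0.99, 0.77, 0.83, 0.99 and 0.77, in order of position, and its median input level of 6.24 was well above the 5.43 of all far intergenic sites. Another of 5 sites spanned 29.5 kb on chromosome 1 beside RP11-443B7.3, 130 to 159 kb from the start of TOMM20, a mitochondrial import receptor. Its log2 folds were 0.84, 1.03, 0.81, 1.57 and 1.14. On chromosome 5, a cluster of 4 lay between FAT2, an atypical cadherin, and SPARC, a matrix protein, with log2 folds of 0.82, 1.48, 1.30 and 1.67. A second on chromosome 5 lay between C5orf15 and TCF7, a factor of WNT signalling, with 0.77, 0.93, 0.82 and 1.34. On chromosome 10, 2 clusters of 4 lay near DDIT4, an inhibitor of mTORC1, with median log2 folds of 1.21 and 1.17 and median input levels of 6.14 and 6.38.

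BHLHE40 is a transcriptional repressor of the circadian clock and the hypoxia response and is switched on early by growth signals. It had 4 far intergenic sites in 18.8 kb, all past its start by 15.8, 16.4, 25.4 and 34.1 kb and all listed beside BHLHE40-AS1. Their ChIP levels were 6.69, 8.16, 6.17 and 5.96, and their input levels 4.58, 4.92, 4.50 and 4.74. Their log2 folds were 2.12, 3.24, 1.67 and 1.22. The strongest, at chr3:5037202-5037701, had an FDR of 5.62e-06, while its weaker neighbour with 2.12 had 2.59e-07. From the strongest site outwards, fold was lower at each site farther from the gene.

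Some genes were the nearest listed coding start of many members. TBX3, a T-box factor of mammary gland development, was the nearest listed coding start of 9, all upstream of it, from 219 to 699 kb. The nearest of these, at chr12:115341040-115341539, had a log2 fold of 3.15 (ChIP 8.14, input 4.99, FDR 7.87e-24). The site next to it had 1.40, a site at 472 kb had 1.71, and the other 6 were between 0.73 and 1.17. Of the 9, 5 had a log2 fold of 1 or more, beside 66.9% of all sites. FAM155A on chromosome 13 was also the nearest listed coding start of 9, all past its start by 948 to 2201 kb. Their largest log2 fold was 1.32 and their median 0.93.

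NDFIP2, an adaptor of NEDD4-type ubiquitin ligases, was the nearest listed coding start of 8 members downstream on chromosome 13, in 2 groups. Coding genes that the table does not list may lie nearer to them. From 109 to 150 kb, beside LINC01068, the log2 folds were 1.96, 1.45, 0.96 and 1.70. From 455 to 568 kb, beside LINC00382, they were 0.74, 0.68, 2.26 and 3.06. The strongest, at chr13:80622875-80623374, had a ChIP level of 9.42 and an input level of 6.36. The 2 strong sites of the far group lay next to each other.

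MYC, the growth-promoting factor, was the nearest listed coding start of 8 members on chromosome 8. The 3 upstream, from 64.2 to 73.6 kb beside CASC11, had log2 folds of 1.02, 1.19 and 0.79. Of the 5 downstream, 4 lay between 373 and 587 kb with folds from 0.74 to 1.05. The fifth, at chr8:129873623-129874122 and 1126 kb away, had 2.76 (ChIP 8.21, input 5.45, FDR 6.38e-18). It was the only one of the 8 above a log2 fold of 1.19. ANO10 had 8 upstream, of which the 2 most distant, at 224 and 227 kb, had 2.22 and 2.05. INHBA, which encodes a subunit of activin, had 4 on either side, with a largest log2 fold of 1.69 at 780 kb.

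**Figure D4:**
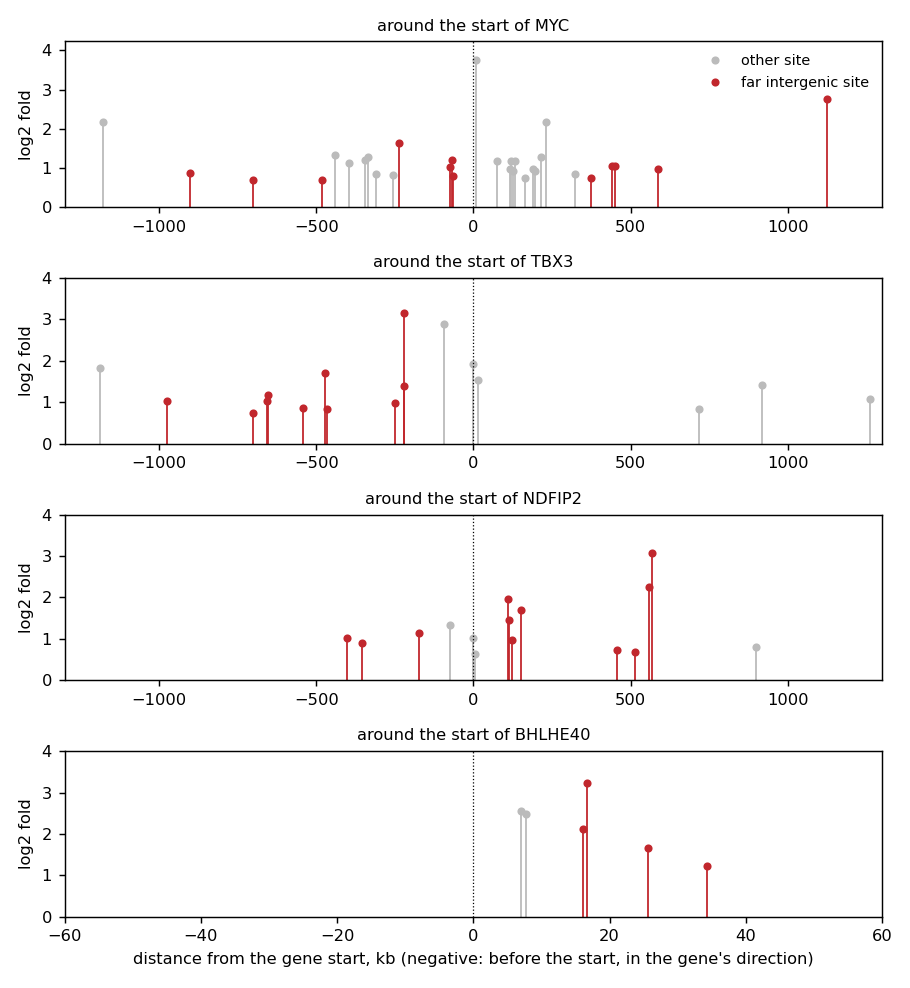
The log2 fold (y axis) of every site of the table around the starts of MYC, TBX3, NDFIP2 and BHLHE40, against the distance from the start (kb, in the direction of the gene). Red marks far intergenic sites and grey the other sites. The tall red lines are the sites with log2 folds of 2.76, 3.15, 3.06 and 3.24. Some red sites in these windows have another gene as their nearest listed coding start.

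The remaining sites with a log2 fold of 3 or more lay on 6 chromosomes. ZC3H7A, an RNA-binding zinc finger gene, had 3.23 at 12.8 kb upstream. A site at chr3:156445980-156446479 had 3.14, 55.0 kb from the start of TIPARP, a target of the aryl hydrocarbon receptor. TRPM3, a cation channel, had 3.13 at 57.7 kb upstream, and LINC00399 had 3.11 with IRS2, an insulin receptor substrate, at 374 kb. CCL20, a chemokine, had 3.08 at a site 22.1 kb past the gene. RNU7-108P had 3.14, RNU2-19P 3.03 and RNA5SP136 3.01.

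Genes of the 13 lists stood beside between 0 and 8 far intergenic sites per list. For scale, 668 far intergenic sites were listed beside protein-coding genes, and the table lists 8950 such genes. No list was tested against these numbers. By the gene the table lists, basal and myoepithelial markers had 6 sites beside 4 of 40 genes, with a median log2 fold of 1.25 beside the 1.05 of all far intergenic sites. ITGA6, an integrin of hemidesmosomes, had 1.61 at 18.5 kb, SNAI2 1.34 at 25.7 kb, and TP63, the master factor of basal cells, 1.16 at 16.0 kb. Of these 6, 4 had a log2 fold of 1 or more and 0 one of 2 or more, shares that over all sites were 66.9% and 10.9%. Luminal markers had 2 sites beside 1 of 35 genes, CYP24A1, with at most 0.97. Fibroblast markers had 4 sites beside 2 of 17 genes, FAP at 1.08 and COL1A2 at 0.87. Immune markers (18 genes) and neuronal and liver genes (18 genes) had none. Of these lists, 35 basal, 13 luminal, 5 fibroblast, 4 immune and 6 neuronal and liver genes appear anywhere in the table.

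Pathway lists had between 0 and 8 sites each by listed gene. Of their genes, 31 AP-1, 21 TP63, Notch and epidermal, and 15 TGF-beta genes appear anywhere in the table. So do 20 YAP/TEAD, 15 EGF receptor and 17 common fragile site genes. AP-1 and immediate early genes had 4 sites beside 4 of 42 genes, FOSL2 at 1.12, CSRNP1 at 1.04, KLF4 at 0.80 and EGR2 at 0.77. The list of TP63, Notch and epidermal factors had 8 sites beside 6 of 35 genes, with a median of 1.10. ETS2, an ETS factor, had 2.08 at 17.2 kb, and FOXQ1, a forkhead factor, 1.78 at 20.9 kb. TGF-beta genes had 4 sites beside 3 of 27 genes, with PMEPA1, a brake on SMAD signalling, at 1.64. The YAP/TEAD list had 3 sites beside 2 of 25 genes, with a median of 0.79 and 1 site at 1 or more (66.9% of all sites). EGF receptor ligands and feedback genes had 4 sites beside 2 of 24 genes, DUSP7, a phosphatase of ERK, at 1.76 and TGFA, a ligand, at 1.04. Common fragile site genes had 1 site beside PTPRG, at 0.87. Genes of homologous recombination and Fanconi anemia (41 genes) and p53 target genes (23 genes) had none, although 31 and 17 of them are paired with some site of the table.

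By the nearest listed coding start, a wider reading that was added after the data were seen, the counts grew. This reading gives each of the 2211 far intergenic sites 1 of the 8950 listed coding genes. AP-1 and immediate early genes then had 50 sites around 17 genes, of which 33 had a log2 fold of 1 or more and 4 one of at least 2 (66.9% and 10.9% of all sites), with a median of 1.06. BHLHE40 and MYC led, followed by DUSP6, an ERK phosphatase, with 2.18 at 30.8 kb and BTG1 with 1.94 at 195 kb. The list of TP63, Notch and epidermal factors had 29 sites around 12 genes with a median of 0.92, led by EHF, an epithelial ETS factor, at 2.87 and 136 kb. Basal markers had 23 sites around 10 genes with a median of 1.13, led by SNAI2 with 1.89 at 82.8 kb and EGFR with 1.65 at 758 kb. TGF-beta genes had 22 sites around 9 genes with a median of 1.35, led by TGFBR2, the type II receptor, with 2.34 at 264 kb and TGFBR1, the type I receptor, with 2.14 at 150 kb. EGF receptor genes had 16 sites around 7 genes with a median of 1.09, and YAP/TEAD genes 9 around 5 with a median of 1.18, led by VGLL4 with 3.25 and CYR61 with 1.67.

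The remaining lists had between 0 and 5 sites each by this reading. Few of their genes appear in the table: 13 luminal, 5 fibroblast, 17 p53 target, 31 homologous recombination and 17 common fragile site genes. Luminal markers had 3 sites around 2 genes, fibroblast markers 5 around 2, and p53 targets 3 around 2, with median log2 folds of 0.91, 0.87 and 0.78. For the p53 targets, the strongest site lay 2121 kb from the start of ZMAT3 (0.99) and 109 kb from that of GADD45A (0.74). The homologous recombination list had 2 sites, at 511 kb from RBBP8 (log2 fold 1.53) and at 514 kb from BRCA2 itself (0.97). Common fragile site genes had 2, PARK2 at 1.27 and PTPRG at 0.87. Immune markers and neuronal and liver genes had none.

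The share of far intergenic sites differed widely between chromosomes. It was highest on chromosome 13, with 103 of 339 sites (30.4%), followed by chromosome X (60 of 275, 21.8%) and chromosome 8 (133 of 610, 21.8%). It was lowest on chromosome 19, with 27 of 841 (3.21%), on chromosome 17, with 61 of 856 (7.13%), and on chromosome 14, with 25 of 281 (8.90%). Chromosomes 17 and 19 are known to be gene-dense and chromosome 13 gene-poor. Any part of gene density in these shares was not tested. The median distance to the listed gene was 14.2 kb on chromosome 19, 15.1 kb on chromosome 17 and 26.6 kb on chromosome 13.

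Input levels moved with fold on some chromosomes. The 32 far intergenic sites of chromosome 4 had a median log2 fold of 1.63, the highest, with a median input level of 4.47, the lowest, and 9 of them had a log2 fold of 2 or more (6.56% of all far intergenic sites and 10.9% of all sites). Chromosome 14 had 1.40 with an input level of 4.84. Chromosome 10 had 153 sites with a median log2 fold of 0.95, an input level of 5.91, the highest, and 3 sites (of 153) at a log2 fold of 2 or more. Folds as low were also seen without such high input. Chromosome 22 had the lowest median log2 fold, 0.92 over 36 sites, with an input level of 5.5. Chromosome 17 had 0.95 over 61 sites, with an input level of 5.48. Chromosome 18 had a low input level of 5.185, yet its median log2 fold was 1.055. The 5 sites with the most input were 4 on chromosome 10, beside PPIF, DNAJB12, AL355512.1 and GAPDHP28, and 1 on chromosome 13, with input levels from 6.67 to 6.86 and log2 folds from 1.02 to 1.43. Of the 5 with the least, 4 were on chromosome 4 and 1 on chromosome X, with input levels from 3.11 to 3.65 and folds from 1.97 to 4.10. The part of input level in these chromosome medians was not tested. Outside chromosomes 4, 10, 13, 14, 18 and X, 1810 far intergenic sites had a median of 1.05.

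**Figure D5:**
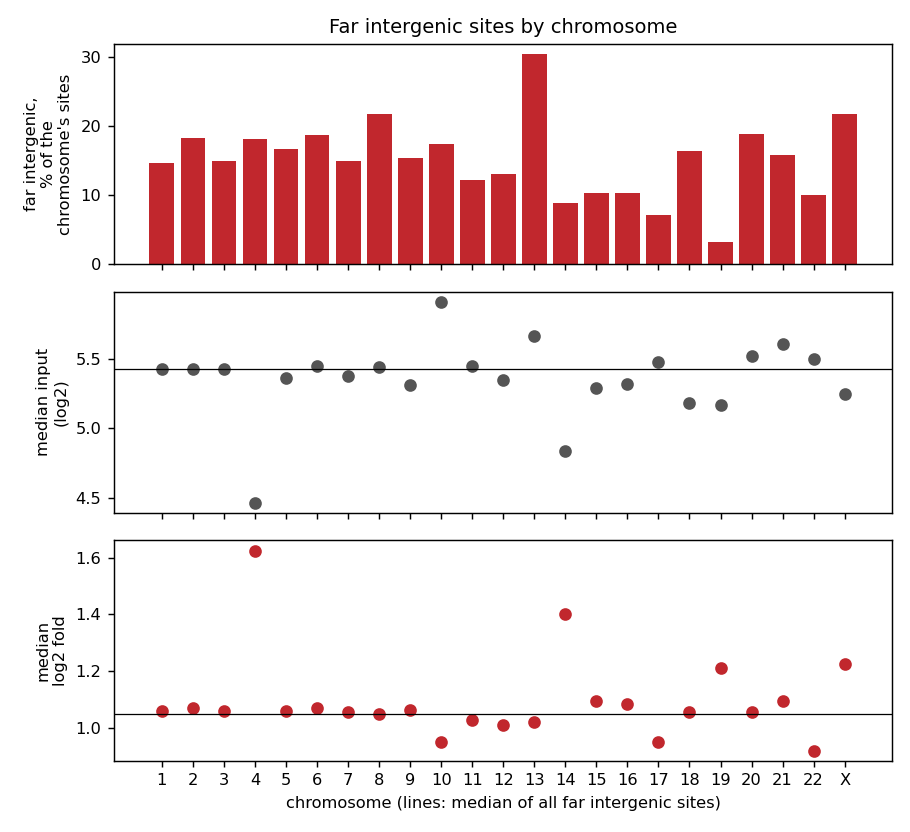
By chromosome, the far intergenic share of its sites (percent, bars), and the median input level and median log2 fold of those sites (points; lines give the medians of all 2211). Chromosome 13 has the tallest bar at 30.4% and chromosome 19 the shortest at 3.21%, and chromosome 4 pairs the lowest input with the highest fold.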

How the data were processed

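Per the submitters' processing notes, cutadapt 1.8.1, Bowtie 1.1.1, SAMtools, Picard 1.92, MACS2, DiffBind and the hg19 build were named, without settings. DiffBind compared 2 ChIP with 2 input libraries, per the series' design text. For its scaling and for the gene annotation release, the sources used here give nothing. The authors' deposited table gives mean log2 concentrations of each group, a log2 fold and an FDR (q-value) per site, per the file headers. The fold and the difference of the concentrations lay within 0.01 of each other. FDR was adjusted by the authors over sites whose number is not given, so percentages here are of the 15131 listed sites.

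The 23317 rows were joined to sites (Python 3.11.15, pandas 2.3.3, numpy 2.4.6, scipy 1.17.1, matplotlib 3.10.9). Starts count from 0 in the table and from 1 here. Gene starts were taken from each row's distance. All 4654 genes with several rows gave a single start each. Gene kinds came from RefSeq (GRCh38.p14) by Entrez ID, symbol or older symbol, with no coordinate used. A date stood in place of the symbol in 1 row. The grouping and clustering were tested on simulated data. The members, the 13 gene lists and the naming rule were chosen with earlier results of these data known. The naming rule took the 12 largest folds, the 8 smallest FDR values, the 5 farthest sites, the 5 highest and 5 lowest inputs, the 5 leading clusters and genes, and up to 4 genes per list. The sites around ZHX2 and the 23 sites with a log2 fold of 3 or more were described after their values were seen. The second deposited list holds symbols with no measurement and was not used. Sequences at the sites are not shown, since no hg19 genome was used here. A few genes that the naming rule takes are left out of the text.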

Additional observations from a re-analysis of the deposited data

How the results depend on the processing

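Since the table holds group means, no library could be left out and no test refitted. No paired analysis was possible because the table carries no value per library. Settings were changed a single choice at a time. The 2211 far intergenic sites became 1354 at over 20 kb from genes, 484 at over 50 kb, 1427 at an FDR under 0.01, 729 at an FDR under 0.001, 4628 when any row had to pass instead of every row, and 1408 when also over 50 kb from listed coding starts, a setting chosen after seeing the data. The median log2 fold of 1.05 became 1.23 at an FDR under 0.01 and 1.52 at an FDR under 0.001, as the weakest sites leave. Under the other 9 settings it was between 1.04 and 1.07. The 145 sites with a log2 fold of 2 or more became 94 at 20 kb, 37 at 50 kb and 351 when any row had to pass. The 563 sites in clusters became 307 at 20 kb, 73 at 50 kb, 301 at an FDR under 0.01, 108 at an FDR under 0.001, 1251 when any row had to pass, 317 with the coding start setting, and 372 when linked within 10 kb. Looser settings raised the counts. At over 5 kb from listed genes there were 2901 sites, 202 of them with a log2 fold of 2 or more and 772 in clusters. Linking within 50 kb placed 797 of the 2211 sites in clusters. The depth of each library is unknown, which limits what a weak fold can show.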

Other observations

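In the authors' deposited table, FDR and fold ranked some far intergenic sites differently. The site near TGFBR2 at chr3:30383698-30384197 had a log2 fold of 2.34 with an FDR of 0.0134, the weakest FDR among the 145 far intergenic sites with a log2 fold of 2 or more. The site at chr4:33264340-33264839 had 4.10 with 0.00158, and the strongest site past BHLHE40 had 3.24 with 5.62e-06, while CCL20 with 3.08 had 4.87e-21. The spread between libraries behind these values is not in the table used here.

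Nearly all far intergenic sites, 2206 of 2211, were 500 bp wide. The 5 wider ones, up to 930 bp, had a median log2 fold of 0.83. The 12 sites with 2 genes listed had a median log2 fold of 0.93.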
